A study of Mus musculus with 35 samples.

Results

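The chromatin around 7 mouse genes, each picked for a nearby region that closed strongly in hepatocytes of cachectic mice, was examined region by region, namely those of Olfr173, Eid2, Tmem45a, Rasgrp3, Pcdh20, Nolc1 and Pnpt1. Their regions were those rows of the deposited table whose nearest gene was 1 of these and whose centre lay within 100 kb of its transcription start site. This gave 47 of 177904 regions: 13 at Pcdh20, 11 at Nolc1, 8 at Rasgrp3, 6 at Eid2, 5 at Tmem45a, 2 at Olfr173 and 2 at Pnpt1. Neighboring regions often overlapped, and the 47 regions formed 35 separate sites. All 47 passed the filter on low counts.

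Accessibility had been measured by ATAC-seq, in which a transposase cuts and tags open DNA, so that a region with many tags was open. Nuclei came from mice of the genotype CAG-Sun1/sfGFP, Albumin-Cre, in which hepatocytes carry a fluorescent nuclear envelope protein by which their nuclei are captured, and all 9 groups shared this genotype. BALB/c mice of the C26 cohort were injected with PBS (C26_PBS), carried a C26 tumor without yet being cachectic (C26_PRE) or were cachectic (C26_CX). The NC26 cohort (BALB/c) and the MC38 cohort (C57BL/6N) held PBS-injected mice (NC26_PBS, MC38_PBS) and mice with a weight-stable tumor (NC26_TUM, MC38_TUM). The 8025 cohort (C57BL/6N) held PBS-injected mice (8025_PBS) and mice with cachexia (8025_CX). Each group had 4 libraries, each from its own animal, except 8025_PBS with 3 (replicates 1, 2 and 4). Cachectic mice were killed after more than 10% weight loss. The zeitgeber time was 9 in all groups. The sources used here do not state the weight criterion for C26_PRE or the ages. The driver of Cre is active in hepatocytes, and tumor line went together with cohort and, in part, with strain and library series. The library series was read from the numbers in the library names alone.

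Cachexia is a wasting of muscle and fat that accompanies some tumors, during which the liver turns to inflammatory protein synthesis and fuel supply. Most regions that change in such a liver are distal elements, stretches away from start sites at which transcription factors bind, and the nearest gene need not be the gene that a distal element acts on. Many mouse distal elements lie in relics of retroviruses and other transposable elements. Olfr173 encodes an olfactory receptor, a class of odorant receptors of the nose. Eid2 encodes an inhibitor of the acetyltransferase p300, and Tmem45a a membrane protein known from keratinizing epidermis. Rasgrp3 encodes an exchange factor that activates Ras family proteins in response to diacylglycerol. Pcdh20 encodes a protocadherin, a cell adhesion protein. Nolc1 encodes a nucleolar phosphoprotein that carries small nucleolar ribonucleoproteins, and Pnpt1 the polynucleotide phosphorylase of mitochondria, which degrades RNA.

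The members were chosen by their values, mainly by the fall in C26_CX against C26_PBS. The lowest values of that comparison selected Olfr173, Eid2, Tmem45a, Rasgrp3, Nolc1 and Pcdh20, and how Pnpt1 was picked is not known. The same rule of largest falls names Pnpt1 in the comparison of C26_CX with C26_PRE and in the difference between the C26 and NC26 changes. That difference also names Olfr173, Tmem45a, Rasgrp3, Pcdh20 and Nolc1, so NC26 values may have had a part in the choice, and the NC26 tests below may not be independent of it. C26 values are therefore given as a description, without a test. Tests were made in the NC26, MC38 and 8025 cohorts, except for Eid2 in 8025 and NC26 and for Eid2 and Nolc1 in the difference between 8025 and MC38, because their falls there were among the 10 largest. The latter difference is built from the 8025 and MC38 changes. The Nolc1 tests in 8025 and MC38 and the Eid2 test in MC38 may therefore not be independent of the choice either. For each gene the region with the lowest log2 change in C26_CX within 100 kb is called its lead region.

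The label of strongly closing loci held for 5 of the 7 genes within 100 kb. At Pcdh20 and Pnpt1 the region that had fallen most lay 258927 and 127971 bases upstream of the start site, outside the limit, and the lead regions within the limit changed far less. The plot of 47 changes shows how the lead regions stood apart in the cachexia comparisons.

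**Figure D1:**
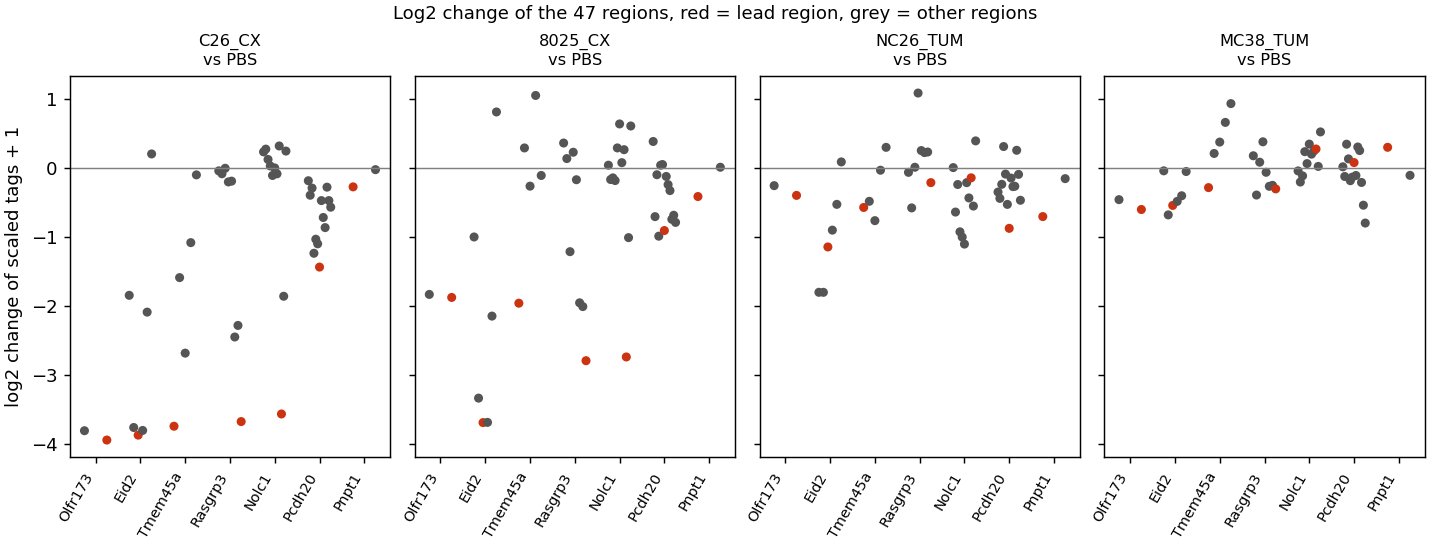
Log2 change of scaled tags + 1 for each of the 47 regions (1 point each, in genome order within a gene) in 4 comparisons with PBS, with lead regions in red. The C26_CX panel, which chose most of the genes, reaches -3.94 at Olfr173, the 8025_CX panel reaches -3.69 at Eid2, and no MC38_TUM point passed the threshold.

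The genes Tmem45a, Rasgrp3, Nolc1 and Pnpt1 have a member region at their own promoter for which a sequence was at hand, and these are shown because 2 of the promoters were wide open and 2 nearly closed while distal regions of the same genes fell. The 250 bases before each start site, from RefSeq on GRCm38.p6 (mm10), lie at chr16:56886164-56886413 (- strand), chr17:75465288-75465537 (+ strand), chr19:46075597-46075846 (+ strand) and chr11:29130494-29130743 (+ strand). They are written 5′ to 3′, in lower case, with matches to any of 8 motifs in capitals.
Tmem45a: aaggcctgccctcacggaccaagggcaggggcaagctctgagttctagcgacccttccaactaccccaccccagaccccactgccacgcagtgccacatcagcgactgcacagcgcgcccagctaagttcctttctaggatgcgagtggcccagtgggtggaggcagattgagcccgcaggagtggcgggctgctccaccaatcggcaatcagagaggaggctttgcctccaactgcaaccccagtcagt
Rasgrp3: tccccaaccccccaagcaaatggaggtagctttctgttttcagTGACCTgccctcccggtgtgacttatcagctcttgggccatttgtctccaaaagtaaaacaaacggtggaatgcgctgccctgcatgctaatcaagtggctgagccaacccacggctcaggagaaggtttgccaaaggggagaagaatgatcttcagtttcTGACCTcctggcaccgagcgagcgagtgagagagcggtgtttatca
Nolc1: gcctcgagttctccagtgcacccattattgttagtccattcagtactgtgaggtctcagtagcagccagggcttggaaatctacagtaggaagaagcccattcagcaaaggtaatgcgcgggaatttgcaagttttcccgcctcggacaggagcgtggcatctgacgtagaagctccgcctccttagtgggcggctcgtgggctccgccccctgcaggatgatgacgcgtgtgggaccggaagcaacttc
Pnpt1: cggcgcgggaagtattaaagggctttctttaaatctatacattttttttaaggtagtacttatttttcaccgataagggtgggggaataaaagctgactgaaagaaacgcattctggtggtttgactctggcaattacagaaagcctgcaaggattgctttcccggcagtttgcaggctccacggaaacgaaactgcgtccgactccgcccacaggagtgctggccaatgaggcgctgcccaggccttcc
The motifs searched on both strands, with the share of 32851 promoter windows of this length that hold each, were TTCNNNGAA (7.02%), AGGTCA (14.0%), TGTTTAC (3.17%), TTATGTAA (0.819%), TTGCGCAA (0.164%), ATTGATT (2.61%), CAAAGTCCA (0.384%) and CACGTG (6.02%). The Rasgrp3 window held 2 matches to AGGTCA, both on the other strand, at positions 44 and 205 from its 5′ end. The other windows shown held no match to these letters. CG dinucleotides numbered 14 at Nolc1, 12 at Pnpt1, 10 at Tmem45a and 8 at Rasgrp3, against a median of 6 over all promoter windows. Sequences of the distal regions were not used here.

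The lead region nearest Olfr173 (chr16:58793349-58793749, mm10, intergenic, 4393 bases downstream of the start site) was open in all groups but the cachexia groups. The C26_PBS libraries had 34.6, 46.5, 39.9 and 29.3 scaled tags (tags in 400 bases, per 10 M tags of the library), and C26_PRE had 21.98, 34.2, 19.2 and 22.4. C26_CX had 2.38, 3.16, 0.97 and 0.69, from 2 to 9 read ends a library. All C26_CX libraries thus lay below every other library of the cohort, and the log2 value fell by 3.94 ± 0.25 (SE, n = 4 each). In 8025_PBS the region had 24, 21.9 and 29.8 scaled tags and in 8025_CX 3.55, 7.75, 5.89 and 9.31, with no overlap. This fall by 1.88 ± 0.27 passed (n = 3 and 4, limma adjusted p = 2.7e-06). An overlapping region (chr16:58793177-58793577), annotated within an RLTR20C2_MM element of the ERVK class of endogenous retroviruses, fell by 1.83 ± 0.27 (limma adjusted p = 4.5e-06). NC26_TUM (17.1 to 44.4) and MC38_TUM (13.3 to 34.2) overlapped their PBS groups (26.6 to 46.1 and 24.7 to 47.5), with log2 changes of -0.40 (adjusted p = 0.6) and -0.60 (adjusted p = 0.69) in limma.

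The Eid2 lead region (chr7:28244101-28244501, intergenic, 23580 bases upstream) fell to a few tags in both cachexia cohorts. C26_PBS had 28.4, 33.5, 44.9 and 27.5 scaled tags, C26_PRE 14.2, 20.8, 33.2 and 15.6, and C26_CX 1.32, 0.79, 2.59 and 1.37. The 8025_PBS libraries had 30.5, 42.6 and 22.9, and 8025_CX had 2.07, 1.7, 0.63 and 2.04. Each cachexia library lay below every library of the other groups, and the log2 values fell by 3.87 ± 0.27 in C26 and by 3.69 ± 0.29 in 8025, both given without a test. The 2 regions overlapping it changed by -3.69 and -3.34 in 8025, and a region at chr7:28245042-28245442 by -2.15. The Eid2 region nearest the start site, 3911 bases upstream, changed by 0.20 in C26 and 0.81 in 8025. In the weight-stable NC26_TUM group the lead had 15.8, 9.42, 23.2 and 21, below all NC26_PBS libraries (25.9 to 45.5), with a log2 change of -1.15 ± 0.27 that is likewise a description. MC38_TUM (12.7 to 33.9) overlapped MC38_PBS (20.3 to 40.4), and its change of -0.54 ± 0.27 did not pass (limma adjusted p = 0.79).

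The Tmem45a lead region (chr16:56848189-56848589) lies in intron 1, 37774 bases into the gene, in an L1MA4 element of the LINE class. It had 41.8, 59.9, 62.5 and 46.4 scaled tags in C26_PBS and 7.39, 4.74, 1.62 and 1.37 in C26_CX, a log2 fall by 3.74 ± 0.28. In 8025_PBS it had 15.3, 26.1 and 31.1 and in 8025_CX 2.37, 6.3, 7.16 and 7.27. The groups did not overlap in either cohort, and the 8025 fall by 1.96 ± 0.31 passed (n = 3 and 4, limma adjusted p = 1.5e-05). PBS libraries of the BALB/c cohorts (41.8 to 67.3) all lay above those of the C57BL/6N cohorts (15.3 to 37.6). NC26_PBS and MC38_PBS, each with 2 libraries of either series, did not overlap, and strain and cohort cannot be told apart. A second intronic site, 15037 bases into the gene (chr16:56870926-56871326), went from 14.7, 28.04, 18.9 and 17.8 in C26_PBS to 4.22, 7.51, 0.65 and 0.69 in C26_CX, a log2 change of -2.68. In 8025 its groups overlapped (6.35 to 14.2 in PBS, 3.55 to 16.6 in cachexia; -0.27 ± 0.42, limma adjusted p = 0.77). The adjoining region chr16:56871382-56871782 changed by -1.08 in C26 and by 1.05 ± 0.40 in 8025 (limma adjusted p = 0.08). Whether this site differed between C26 and 8025 was not tested. The promoter of Tmem45a had 0.44 to 10.1 scaled tags over all 35 libraries and changed by -0.11 in 8025 (limma adjusted p = 0.9).

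The Rasgrp3 lead region (chr17:75506667-75507067) lies in intron 9, 41329 bases into the gene, in an ORR1F element of the MaLR class of LTR elements. C26_PBS had 46.5, 68.8, 59.4 and 53.6 scaled tags and C26_CX 5.28, 6.33, 3.56 and 1.37, a log2 fall by 3.68 ± 0.36. 8025_PBS had 34.9, 58.5 and 80.0 and 8025_CX 1.77, 11.6, 8.42 and 13.1. No cachexia library reached the level of a PBS library, and the 8025 fall by 2.79 ± 0.39 passed (n = 3 and 4, limma adjusted p = 1.2e-05). The adjoining regions at chr17:75506269-75506669 and chr17:75506135-75506535 fell too, by 2.01 ± 0.30 (limma adjusted p = 5.1e-06) and 1.96 ± 0.36 (limma adjusted p = 0.00015). A weak region fell by 1.21 ± 0.37 in 8025 (limma adjusted p = 0.023), from 7.48, 4.23 and 6.69 to 1.77, 3.39, 1.68 and 1.75. It lies 63355 bases upstream of another annotated Rasgrp3 start site than the one used for the lead. Its annotation is intron 31 of 33 of another transcript, whose gene is not named there and need not be Rasgrp3. In C26 that region stayed between 1.91 and 4.7 in PBS and between 3.24 and 4.35 in cachexia. The promoter region had 0 to 12.2 scaled tags over all libraries and did not pass in 8025 (0.23 ± 0.45, limma adjusted p = 0.82).

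The Nolc1 lead region (chr19:46099603-46100003, intergenic, 23956 bases downstream of the start site) is annotated within MurERV4_19-int, internal sequence of an ERVK retrovirus. C26_PBS had 20.7, 31.2, 31.6 and 22.8 scaled tags, C26_PRE 11.8, 16.2, 18.4 and 11.9, and C26_CX 3.7, 0, 0.65 and 3.43. Pre-cachexia libraries lay between the other groups without overlap, and the log2 change of C26_CX against C26_PBS was -3.57 ± 0.36. In 8025_PBS it had 10.9, 17.6 and 11.3 and in 8025_CX 0, 2.91, 0.84 and 1.75, a fall by 2.74 ± 0.38 that passed (n = 3 and 4, limma adjusted p = 2.6e-06). Because the difference between 8025 and MC38 also names Nolc1 by this region, its 8025 test may not be independent of the choice. The overlapping region chr19:46099949-46100349, annotated in a B1_Mm SINE, fell by 1.01 ± 0.34 in 8025 (limma adjusted p = 0.038). At the same time the Nolc1 promoter (chr19:46075673-46076073) stayed wide open, with 155.8 to 297 scaled tags over all 35 libraries and a change of 0.04 ± 0.10 in 8025 (limma adjusted p = 0.86). A further Nolc1 region at 12221 bases (chr19:46087868-46088268), named after its values were seen, was the single member region called in NC26. It went from 23.2, 21.7, 30.8 and 31.6 in NC26_PBS to 8.63, 10.7, 23.5 and 16.2 in NC26_TUM (-1.0 ± 0.20, limma adjusted p = 0.015), and the call was lost without any of NC26_PBS replicates 1, 2 or 3 or NC26_TUM replicates 1 or 4 and in edgeR.

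**Figure D2:**
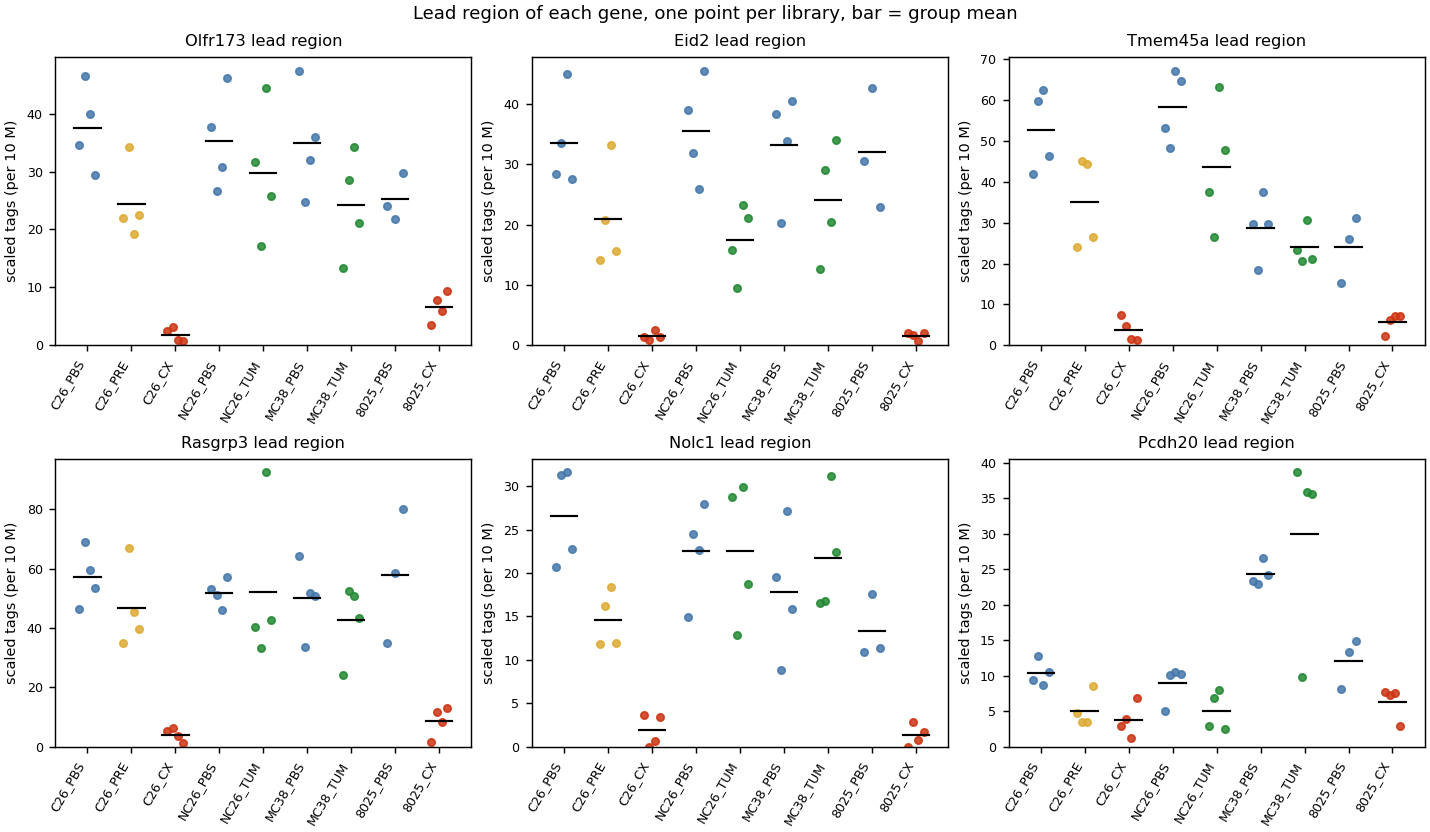
Scaled tags per 10 M (linear axis from 0) of 6 lead regions in all 35 libraries (points; blue PBS, yellow pre-cachexia, red cachexia, green weight-stable tumor), with the group mean as a bar. At Olfr173, Eid2, Tmem45a, Rasgrp3 and Nolc1 the cachexia libraries of both cohorts sit between 0 and 13.1, below the PBS libraries of their cohort. At Pcdh20 they also lie below those PBS libraries, but more closely (1.3 to 6.86 against 8.67 to 12.8 in C26, 2.91 to 7.69 against 8.1 to 14.9 in 8025). There they overlap with the weight-stable NC26_TUM libraries (2.55 to 8.07).

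The 13 Pcdh20 regions within 100 kb changed less. Its lead region (chr14:88462938-88463338, intergenic, in an RSINE1 element) had 9.39, 12.8, 8.67 and 10.5 scaled tags in C26_PBS and 2.9, 3.95, 1.3 and 6.86 in C26_CX, a log2 change of -1.44 ± 0.38. In 8025 it had 8.1, 13.4 and 14.9 in PBS and 7.69, 7.27, 7.58 and 2.91 in cachexia, which did not overlap but did not pass (-0.91 ± 0.41, limma adjusted p = 0.15). The region next to it (chr14:88463369-88463769) had the highest signal of the 13, with 96.6, 159 and 143 in 8025_PBS and 164, 124, 104 and 111 in 8025_CX. Of the 13 regions 0 passed in 8025 by limma, and 3 had an unadjusted p under 0.05, all lower. Such a p was found at 43658 of all 177251 tested regions, so nothing is read from the 3. The largest change there, at chr14:88432424-88432824, was -0.99 ± 0.37 (limma adjusted p = 0.072). Of the Pcdh20 regions beyond the limit, the one with the lowest C26_CX change (chr14:88730123-88730523, in an Lx8 LINE) fell in C26 from 16.01, 27.1, 24.2 and 13.8 to 1.32, 1.58, 0 and 1.37. In 8025 it went from 13.4, 8.46 and 34.5 to 8.28, 9.45, 5.89 and 5.82, with overlap and a log2 change of -1.08 ± 0.50, given without a test. All Pcdh20 regions beyond the limit changed by -3.49 to -0.54 in C26 and by -1.78 to 0.52 in 8025, as a description.

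The 2 Pnpt1 regions within 100 kb did not pass in 8025. The promoter (chr11:29130529-29130929) had 47.95 to 108.9 scaled tags over all libraries, and its change was -0.03 in C26_CX and 0.01 ± 0.13 in 8025 (limma adjusted p = 0.98). The other region, a weak one 89741 bases upstream, had at most 5.05 in any library and changed by -0.42 ± 0.47 in 8025 (limma adjusted p = 0.66). The Pnpt1 region with the lowest C26_CX change lies just beyond the limit (chr11:29002580-29002980, in an L1_Mus3 LINE). It had 15.2, 25.8, 19.2 and 20.3 in C26_PBS, 20.9, 43.7, 17.0 and 35.2 in C26_PRE and 2.64, 0, 2.27 and 2.06 in C26_CX. Pre-cachexia libraries overlapped those of PBS mice (log2 change 0.34 ± 0.45), and all C26_CX libraries lay below both. In 8025 it went from 21.5, 25.4 and 20.3 to 2.96, 17.2, 14.9 and 17.8 (-0.99 ± 0.49, without a test). All Pnpt1 regions beyond the limit changed by -3.15 to 1.31 in C26 and by -0.99 to 1.48 in 8025. Both highest values belong to chr11:28993424-28993824. The member regions nearest to the limit on its inside were those at 89741 bases for Pnpt1 and 86583 bases for Rasgrp3, with C26_CX changes of -0.28 and -0.04, and just outside it lay a Rasgrp3 region at 104234 bases with -0.16.

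**Figure D3:**
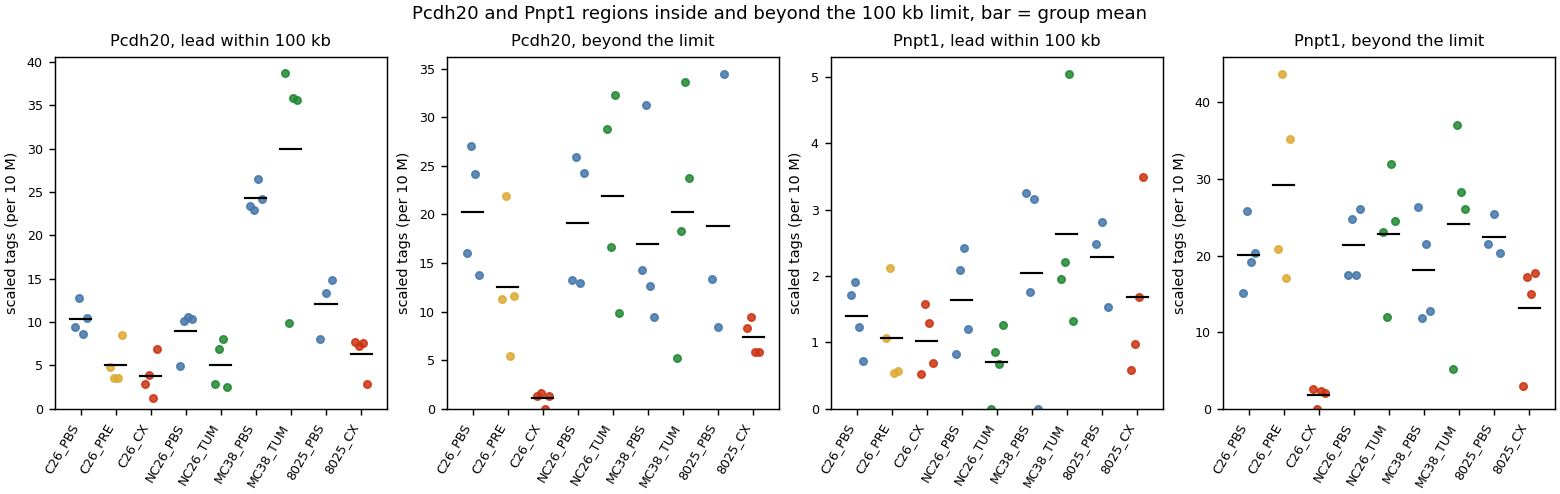
Scaled tags per 10 M (linear axes from 0) of the Pcdh20 and Pnpt1 lead regions within 100 kb and of the region with the lowest C26_CX change beyond it, in all 35 libraries (points, group means as bars). Beyond the limit the C26_CX libraries lie between 0 and 2.64, below all C26_PBS libraries, while 8025_CX libraries reach 17.8.

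In C26_CX, 20 of 47 member regions and 7.13% of all regions were lower at the threshold used elsewhere, a count that the choice of genes fixes and from which nothing is read. In 8025_CX, 9 of the 41 regions outside Eid2 were lower and 0 higher, at 5 of 31 sites, whereas 5.38% of all tested regions were lower and 6.99% higher. These 9 were both Olfr173 regions, 4 of 8 at Rasgrp3, 2 of 11 at Nolc1 and 1 of 5 at Tmem45a, and their sites were those of the leads plus 1 at Rasgrp3. The 2 at Nolc1 may not be independent of the choice of that gene. The median log2 change of the 41 regions was -0.17, against -0.01 over all regions. In NC26_TUM 1 of 41 regions was lower and 0 higher, beside 0.186% of all regions called in either direction. In MC38_TUM 0 of 47 was called by limma, where 0.0186% of all regions were called, with 4 regions at an unadjusted p under 0.05 (3 lower) and 0 calls in edgeR or DESeq2. Such a p was found in MC38_TUM at 11208 of all 177251 tested regions.

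The effects of 8025 and MC38, both in C57BL/6N, were compared directly for 30 regions of 5 genes. The change in 8025 was more negative at 4 regions and more positive at 0, whereas 0.779% of all regions were called lower. These were the Rasgrp3 lead (difference of log2 changes -2.49 ± 0.53, limma adjusted p = 0.012) and its neighbor at chr17:75506269 (-1.76 ± 0.41, limma adjusted p = 0.014), the Tmem45a lead (-1.67 ± 0.42, limma adjusted p = 0.025) and the Olfr173 region in the ERVK element (-1.37 ± 0.37, limma adjusted p = 0.04). The Olfr173 lead itself missed the threshold (-1.27 ± 0.37, limma adjusted p = 0.059; edgeR adjusted p = 0.021, DESeq2 adjusted p = 0.0053). The differences at the Eid2 and Nolc1 leads, -3.15 ± 0.40 and -3.01 ± 0.52, are descriptions. The Olfr173 call was lost without any 1 of 10 of the 15 libraries, all but 8025_CX replicates 2 and 4, MC38_PBS replicate 1 and MC38_TUM replicates 1 and 4, with adjusted p up to 0.11. The Tmem45a call was lost without 8025_CX replicate 1 (adjusted p = 0.062), 8025_PBS replicate 2 (0.091) or 4 (0.061), or MC38_TUM replicate 3 (0.057), and the Rasgrp3 lead's call with only these cohorts in the limma fit (adjusted p = 0.08). Both Rasgrp3 calls were kept without each library (limma adjusted p at most 0.046). All 8025 libraries belong to 1 library series, and MC38 replicates 1 and 2 to the other. The fit carried series as a covariate, but this cannot take out a change that itself differs between the series. Within the series of the 8025 libraries, the MC38 change at the leads (n = 2 per group) was -0.41 at Olfr173, -0.47 at Tmem45a and -0.21 at Rasgrp3, and within the other series it was -0.80, -0.11 and -0.40. In NC26 the change at the Rasgrp3 lead was -0.48 in 1 series and 0.05 in the other, and at the Nolc1 lead 0.02 and -0.31.

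In the 9 group means, 8025_CX and C26_CX took the lowest 2 places at the Olfr173, Eid2, Tmem45a, Rasgrp3 and Nolc1 leads. The choice of genes fixes this for C26_CX. At Eid2, which the fall in 8025 names too, it also bears on the place of 8025_CX, and at Nolc1 it may do so. The libraries of those 2 groups overlapped each other except at Olfr173, where C26_CX (0.69 to 3.16) lay below 8025_CX (3.55 to 9.31). The next group up never overlapped with the second lowest at these leads, and among the 7 upper groups each overlapped with its neighbor in the order. Before cachexia, C26_PRE leads had log2 changes against C26_PBS of -0.72 at Olfr173, -0.81 at Eid2, -0.72 at Tmem45a, -0.42 at Rasgrp3 and -0.93 at Nolc1, described without a test because these libraries share controls with the comparison that chose the genes. Those changes were smaller than the further changes from C26_PRE to C26_CX, of -3.23, -3.07, -3.03, -3.26 and -2.64.

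Within 250 kb of the 5 leads that closed, the lowest C26_CX change among the regions that are not members was -1.23 at the Olfr173 locus, -0.48 at Eid2, -0.90 at Tmem45a, -1.09 at Rasgrp3 and -1.08 at Nolc1. In 8025, 1 of 29 such regions at Olfr173, 0 of 81 at Eid2, 2 of 17 at Tmem45a, 1 of 19 at Rasgrp3 and 2 of 77 at Nolc1 were lower in limma, and 1, 1, 0, 2 and 4 were higher, beside 5.38% lower and 6.99% higher over all regions. The 2 at Tmem45a are overlapping regions nearest Adgrg7, an adhesion receptor gene, about 62 kb from the lead, and fell by 1.82 and 1.71 in 8025 (limma adjusted p = 6.4e-07 and 1.5e-06), beside -0.41 and -0.39 in C26. This pair was named after its values were seen.

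**Figure D4:**
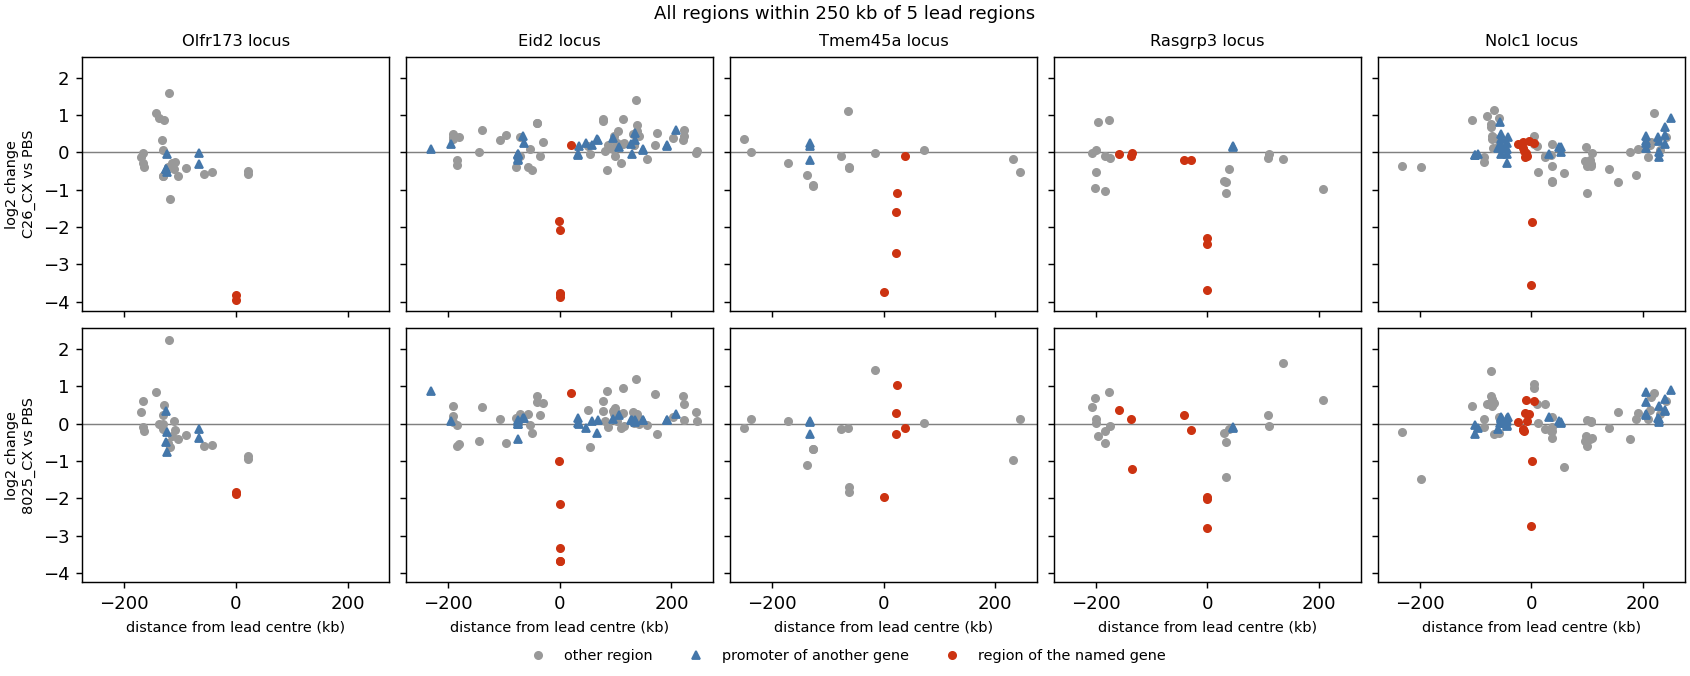
Log2 change of scaled tags + 1 for every region within 250 kb of 5 lead regions, against the distance from the lead's centre in kb (upper row C26_CX, lower row 8025_CX, each against PBS). Red points are regions of the named gene within 100 kb of its start site, blue triangles promoters of other genes and grey points other regions. The triangles lie between -0.77 and 0.92 around leads that reach -3.94.

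Genes other than the nearest are possible targets of such distal regions. There were 36 neighbor genes with a promoter region within 250 kb of a lead: 16 at Eid2, 14 at Nolc1, 2 each at Olfr173 and Pnpt1, 1 each at Tmem45a and Rasgrp3 and none at Pcdh20. In 8025 0 of the 36 promoters were lower and 2 higher by limma, beside 4.43% of all promoter regions lower and 2.83% higher. Both lie at the Nolc1 locus. Nfkb2, which encodes an NF-kB subunit, is 204785 bases from the lead (chr19:46304388-46304788). Its promoter rose from 55.5, 63.1 and 55.8 to 111.5, 99.1, 122 and 103 scaled tags (0.84 ± 0.14, limma adjusted p = 1.7e-05), and the rise exceeded that in MC38 by 0.81 ± 0.18 (limma adjusted p = 0.012). The promoter of 2310034G01Rik rose from 18.4, 23.97 and 20.8 to 34.6, 43.4, 37.9 and 52.4 (0.90 ± 0.25, limma adjusted p = 0.0095), and in C26 it had the largest change among promoters of this locus (0.92). In NC26 and MC38 0 of 36 were called by limma, with 0 at an unadjusted p under 0.05 in either and 0 in edgeR and DESeq2. Over all regions limma called 0.186% in NC26 and 0.0186% in MC38, and 18475 and 11208 of 177251 had an unadjusted p under 0.05.

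The promoter of Elovl3, a fatty acid elongase gene, lies 31997 bases from the Nolc1 lead and was named after its values were seen. It had 48.3, 49 and 45.8 scaled tags in 8025_PBS and 54.1, 52.1, 58.9 and 59.4 in 8025_CX, where all cachexia libraries were higher but the change of 0.18 ± 0.13 did not pass (limma adjusted p = 0.44). In C26 it had 58.7 to 88.0 in PBS and 64.5 to 79.5 in cachexia, so the groups overlapped. With each neighbor promoter represented by the region closest to its start site, the largest C26_CX changes at the other loci were 0.61 for Lrfn1 at Eid2, 0.44 for Ppp4r3b at Pnpt1, 0.26 for Tfg at Tmem45a, 0.17 for Fam98a at Rasgrp3 and -0.04 for Cpox at Olfr173. Further regions within 1 kb of a start site at the Olfr173 locus had C26_CX changes of -0.53, -0.45 and -0.44 at Cpox, a heme synthesis gene, and -0.31 at Cldnd1. The first of these fell by 0.77 in 8025 (limma adjusted p = 0.0033), while the region closest to the Cpox start site did not pass (-0.23 ± 0.11, limma adjusted p = 0.18).

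Promoters of the members themselves (5 regions) gave 0 calls in each of the 4 tested comparisons in limma, edgeR and DESeq2, with 0 regions at an unadjusted p under 0.05 in 8025 and 1 in each of the others. Of all promoter regions 4.43% were lower and 2.83% higher in 8025, so nothing is read from 0 of 5. Over all regions 0.186% were called in NC26 and 0.0186% in MC38, and in the difference 1380 of 177251 were lower and 1635 higher. Genes related to the members by family or partnership, such as the nucleolar partners Dkc1, Fbl and Tcof1 of Nolc1 and the mitochondrial RNA factors Supv3l1, Lrpprc and Slirp beside Pnpt1, had a promoter region for 22 of 29 listed genes. By limma 0 of these 22 were called in 8025, NC26, MC38 or the difference. Another 13 promoters belonged to olfactory receptor genes, of which Olfr1160 fell by 0.71 ± 0.22 (limma adjusted p = 0.022) and Olfr52 rose by 2.08 ± 0.42 (limma adjusted p = 0.00044) in 8025. Over all 35 related promoters, 5 had an unadjusted p under 0.05 in 8025, 4 in NC26, 1 in MC38 and 5 in the difference, and edgeR and DESeq2 each called 2 in 8025 and 0 elsewhere. Among all 177251 tested regions, 43658 had such a p in 8025, 18475 in NC26, 11208 in MC38 and 23993 in the difference. Without 8025_CX replicate 1 or 4 or 8025_PBS replicate 2 a single related promoter was called in 8025.

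Correlations between lead regions over the 35 libraries are in part fixed by the choice, since each lead was picked for a low C26_CX value. On the log2 scale the Pearson correlation was 0.96 between the Olfr173 and Rasgrp3 leads and at least 0.86 between any pair of the 5 leads that closed, whereas the Pnpt1 lead reached at most 0.35 with any other. Among 26632 promoter regions, the 2 most like each lead were those of Mup3 (0.94) and Acaa1b (0.90) for Olfr173, Ugt2b1 (0.92) and Slco1a1 (0.90) for Eid2, Mup3 (0.90) and AI427809 (0.89) for Tmem45a, Mup3 (0.93) and Sult2a8 (0.91) for Rasgrp3, and Mup3 (0.90) and Smu1 (0.88) for Nolc1. For Pcdh20 they were Mtmr7 (0.83) and Cyp1a1 (0.83), and for Pnpt1 Sec24b (0.65) and D830031N03Rik (0.64). The Mup3 promoter averaged 67.8 scaled tags in C26_PBS and 9.88 in C26_CX, and 69.1 and 12.5 in 8025. These are descriptions over libraries that share groups and cohorts, and Mup3 belongs to a family of near-identical copies.

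Repeats of any class were annotated at 4 of the 7 lead regions and at 14 of the 47 member regions (29.8%). The shares were 19.9% of all regions and 24.1% of those beyond 1 kb of a start site. These shares count simple and other repeats too, while the repeats at the member regions were all LTR, LINE or SINE elements. Reads in repeats can have more than 1 possible origin, and the sources used here do not say how the authors treated those.

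Depth was 11.3 to 23.8 M tags in 34 of 35 libraries and 3.47 M in NC26_TUM replicate 1. The share of tags inside regions was 37.3% to 62.9%. Replicate pairs correlated with Spearman coefficients of 0.813 to 0.936 over regions. Promoters of 9 of 10 hepatocyte markers averaged 107 to 207 scaled tags in every library. Their sum was 965 to 1329 in C26_PBS and 1233 to 1443 in C26_CX, with 5 of the 9 called higher there and 0 in 8025, NC26 or MC38. Of 33 markers of other cells 9 had a promoter region, and none of 5 lymphocyte markers did. The neutrophil marker S100a8 had 1.41 to 5.14 scaled tags in 8025_PBS and 6.4 to 9.89 in 8025_CX, where it passed as higher, and 2.56 to 9.29 in C26_PBS and 7.2 to 11.9 in C26_CX. The 3 cholangiocyte markers summed to 14.5 to 17.4 in 8025_PBS and 21.1 to 36.4 in 8025_CX, with 1 called higher, and the 3 stellate markers to 66.1 to 84.1 and 42.5 to 59.9, with 1 called lower and 1 higher. The macrophage marker Adgre1 had 1.27 to 4.35 in C26_PBS and 2.59 to 8.91 in C26_CX, and 1.03 to 3.53 in 8025_PBS and 3.39 to 8.73 in 8025_CX, without a call. The endothelial marker Kdr had 7.97 to 10.2 in C26_PBS and 10.3 to 14.8 in C26_CX, which do not overlap, and 4.99 to 9.26 and 7.37 to 11.2 in 8025, also without a call. The part of these shifts in the results above was not tested. In bulk nuclei, fewer cells with an open region and less opening in each cell cannot be told apart.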

How the data were processed

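Open chromatin was measured by ATAC-seq on about 25000 captured hepatocyte nuclei per animal, with 12 amplification cycles, in 35 libraries, per the labels' protocols. Per the submitters' processing notes, the authors worked with BWA 0.7.5a-r405, SAMtools and HOMER on mm10. The sources used here do not state how duplicates and multi-mapping reads were handled or peaks called. Per the file headers, each deposited signal value is the number of tags in a 400-base window (177904 merged peaks), after scaling a library to 10 M tags. Multiplied by each library's total they gave whole read ends (0.5 tag each) for 100% of values within 0.1 read end.

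From these, log2(value + 1) after TMM scaling was fitted with limma-trend (robust), with 9 groups and the library series as a covariate. filterByExpr (minimum count 10, total 15) kept 177251 regions and removed 653, and the Benjamini-Hochberg adjustment ran over all of these, with 0.05 as the threshold. Fold changes on this scale understate those of low regions. Printed per-library values are the deposited ones. The ± values are standard errors of the fit across libraries, and animals are the replicates.

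Members, gene lists and rules were chosen with earlier results of these data known. A member was left out of a test where its fall was among the 10 largest named falls of that comparison, a number set after seeing values. A narrower exclusion was tried and then set aside, and its count is given below. Up to 3 further regions a gene were named by their 8025 change, neighbor genes by a call or by the largest C26_CX change, and promoters alike by correlation. The fit was tested on simulated data. Alternatives were RLE factors, library totals, no filter, pseudocounts 0.5 and 5, edgeR and DESeq2 on the recovered reads, only the cohorts compared, no series, a replicate block and leaving out each library. Same-numbered libraries did not deviate together (correlations -0.16 to 0.08), so numbers did not pair them. The software was limma 3.58.1, DESeq2 1.42.0, edgeR 4.0.16 in R 4.3.3, with Python 3.11.15, pandas 2.3.3 and matplotlib 3.10.9.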

Additional observations from a re-analysis of the deposited data

Results flagged for a closer look

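Lead-region values in groups of 4 libraries were screened for a library far from the other 3, which chance alone gives in about 1 in 20 groups. Of 56 such groups 4 had one. At the Rasgrp3 lead NC26_TUM replicate 3 had 92.4 scaled tags and the others 33.4 to 42.6. At the Pcdh20 lead 8025_CX replicate 4 had 2.91 (others 7.27 to 7.69), NC26_PBS replicate 1 had 4.98 (others 10.2 to 10.5) and MC38_TUM replicate 2 had 9.87 (others 35.6 to 38.7).

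The change in 8025 differed from that in MC38, by the test of the difference itself, at the Rasgrp3 lead (-2.49) and its neighbor at chr17:75506269 (-1.76), the Tmem45a lead (-1.67), the Olfr173 region at chr16:58793177 (-1.37) and the Nfkb2 promoter (0.81). The Olfr173 call was lost when any 1 of 10 of the 15 libraries was left out, and the Tmem45a call with 4 of them.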

How the results depend on the processing

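The count of lower member regions in 8025 was 8 to 11 in other settings (8 with the replicate block) and 7 to 8 with 1 library left out. That in MC38 was 0 in all of them. The NC26 count of 1 was kept with the block and became 0 with library totals, in edgeR and with only the cohorts compared, and 0 to 1 with 1 library left out. The count for the difference between 8025 and MC38 was 3 to 6 in other settings (4 with the block) and 2 to 5 with 1 library left out: it was 2 without 8025_CX replicate 1, 8025_PBS replicate 2 or 4, or MC38_TUM replicate 3. A narrower exclusion, chosen after seeing the values, which left a gene out only for the first 9 falls in cachexia against PBS or the first 4 elsewhere, brought Nolc1 back in and gave 5 of 41 regions. Neighbor promoters called in that difference numbered 0 with library totals and 2 in DESeq2. Related promoters called in 8025 numbered 1 with library totals and 1 to 3 with 1 library left out, and in the difference 0 to 1. The cause of these shifts was not tested. With a pseudocount of 5 the C26 log2 changes of the leads were smaller by construction, -2.73 at Olfr173, -2.63 at Eid2, -2.84 at Tmem45a, -2.87 at Rasgrp3 and -2.29 at Nolc1. The 4 tested leads that passed in 8025 passed in each alternative and without each library. For Nolc1, 1 of these 4, the test may not be independent of the choice, and refitting the same libraries does not alter that. No result changed sign past a threshold. Cachexia libraries had few read ends at the leads, which limits how exactly their falls are known.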

Other observations

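At the Olfr173, Tmem45a, Rasgrp3 and Nolc1 leads the same library, 8025_CX replicate 1, was the lowest of its group, with 3.55, 2.37, 1.77 and 0 scaled tags. It was also the lowest at the Pnpt1 region beyond the limit, with 2.96 against 14.9 to 17.8 in the other 3 cachexia libraries. At the Eid2 and Pcdh20 leads the same library was instead the highest of its group, with 2.07 and 7.69. This library was named after its values were seen.

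The PBS groups of MC38 and 8025, both C57BL/6N, did not overlap at the Pcdh20 lead (22.9 to 26.6 and 8.1 to 14.9 scaled tags). MC38_PBS libraries came from both library series, and those of 8025 from 1.

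Of the 22 regions within 250 kb of the Pnpt1 lead that are not members, 7 were higher in 8025 by limma and 1 was lower, beside 6.99% higher and 5.38% lower over all regions. Of the 7, 6 were nearest Efemp1, which encodes an extracellular matrix protein, and rose by 1.56 to 2.91 on the log2 scale. Some of these 6 overlap each other, and the largest rise was at a weak region averaging 2.82 scaled tags over the libraries. Their C26_CX changes ranged from -0.11 to 1.43.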
